A study of Mus musculus with 6 samples.

Results

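The genes described here are 37 that cells switch on in response to interferon, together with the core genes of antigen presentation by MHC class I. They were taken from a list of symbols, and each is represented by the probe set named for it alone with the highest mean over the 6 arrays. Such a probe set was found for 35 of the 37, and all 35 passed the minimum for testing, out of 11425 named genes tested in all. Ifi44, an interferon-induced protein of the cytoplasm, has no probe set under its name in the annotation used here, and the probe set of Isg15, a small protein that is linked to other proteins like ubiquitin, is shared with a second gene symbol. Both were left out.

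The arrays measured messenger RNA of a mouse sarcoma cell line (strain C57BL6/J), grown without any added stimulus that the labels name and harvested at confluence. In the Dicer heterozygous group (3 samples) 1 copy of Dicer1 was intact, and in the Dicer null group (3 samples) none was. Dicer is the ribonuclease that cuts double-stranded RNA, above all microRNA precursors, and the design asks which transcripts differ when it is missing. Neither the deleted stretch of Dicer1 nor the way the cells were made is given in the labels, nor whether the 3 samples of a group were separate clones or cultures, so the p-values measure only the spread between these samples.

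Interferons are secreted proteins that warn cells of viral infection. Type I interferon acts through its receptor, the kinases Jak1 and Tyk2 and a complex that holds Stat2 and Irf9 and binds a DNA element called the ISRE, while interferon gamma acts through an element called GAS and through Irf1. The genes switched on in this way encode sensors of foreign RNA, enzymes and binding proteins that block viral replication, GTPases that attack the vacuoles of microbes, and the proteasome subunits, peptide transporter and cell surface proteins that show peptides to cytotoxic T cells. Fibroblast-like cells make this response readily and keep part of it switched on at rest.

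What the members share in sequence was read from the stretch of 300 bases around each gene's start (250 before to 50 after, RefSeq, GRCm38.p6), which was given for 31 of the 37. Dhx58, Oas2, Mx1, Mx2, Rtp4 and Usp18 are named only. The core of the ISRE, searched as GAAA, any 2 bases and GAAA on both strands, stood in the window of 15 of the 31 members (48.4%), against 3.99% of all 27025 genes with a window. The GAS letters TTCNNNGAA, which read the same on both strands, stood in 9 of the 31 (29.0%), against 9.55% of all genes, and in 1 member window matches of the 2 motifs overlapped. The members were listed as interferon genes, so these shares describe the list and test nothing, and a match is not a shown binding site. The stretches below are 30 bases long, 5′ to 3′ on the strand of the gene, with the matched letters in capitals, and lie wholly before the start. The first 7 carry the ISRE letters and are shown because their differences between genotypes ran from 2.35 (Oas3) to -1.36 (Gbp2) on the log2 scale. Isg20 and Psmb8 are shown for their GAS letters. The distance given is that of the first capital from the start.
Oas3 (chr5:120777715-120777744, minus strand, 75 bases before the start): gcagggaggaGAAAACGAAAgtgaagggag
Oas1a (chr5:120907526-120907555, minus strand, 20 bases before the start): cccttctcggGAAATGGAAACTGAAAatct
Ifit1 (chr19:34640794-34640823, plus strand, 85 bases before the start): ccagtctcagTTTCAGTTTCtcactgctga
Ifit3 (chr19:34583397-34583426, plus strand, 122 bases before the start): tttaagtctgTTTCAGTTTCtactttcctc
Rsad2 (chr12:26456553-26456582, minus strand, 120 bases before the start): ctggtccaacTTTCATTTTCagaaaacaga
Gbp2 (chr3:142620594-142620623, plus strand, 59 bases before the start): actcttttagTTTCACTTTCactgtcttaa
B2m (chr2:122147538-122147567, plus strand, 139 bases before the start): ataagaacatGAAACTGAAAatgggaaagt
Isg20 (chr7:78913341-78913370, plus strand, 73 bases before the start): ctggggagggTTCTTGGAAtttttcctttt
Psmb8 (chr17:34198088-34198117, plus strand, 97 bases before the start): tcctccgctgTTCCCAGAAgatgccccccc

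All 35 measured members gave clear signal in cells of both genotypes, and none passed the test between them. Their log2 values lay between 5.18 and 13.40 over the 6 arrays, where 3 was taken as the upper edge of background. When limma's p-values were adjusted by Benjamini-Hochberg over all tested probe sets, 0 of 35 were higher and 0 lower in Dicer null cells, while 3.46% of all tested genes passed (3.1% of probe sets). At an unadjusted p under 0.05, 6 members were higher and 5 lower, that is 17.1% and 14.3% of the 35, beside 10.5% and 13.5% of all tested genes. These counts were 2 higher and 1 lower without null replicate 3, 3 and 5 without null replicate 2, 6 and 2 without heterozygous replicate 3, 2 and 2 with ordinary t statistics, 6 and 9 with trend, and 7 and 2 with the replicate number as a block. The shares of all tested genes given here stand for the main setting only. The median difference of the members was -0.23 on the log2 scale, beside -0.01 over all tested genes. Of the members 13 lay above 0 and 22 below (37.1% and 62.9%), beside 48.7% and 51.1% of all tested genes. The exact count depends on the setting: Isg20 or Oas3 passed in some alternatives, and 7 members passed when limma weighted the arrays. With those weights far more probe sets passed in general, 2949 of 24385 in place of 756. A p that misses the threshold does not show equal levels, and the median standard error of a member's difference, 0.27, leaves room for moderate ones.

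The members did not differ in one direction. In 6 members all 3 null values lay above all 3 heterozygous values (17.1% of the 35, beside 14.9% of all tested genes), and in 9 they all lay below (25.7%, beside 17.3%). The difference reached 2-fold in 5 members with higher null means (Oas3, Oasl1, Psmb9, Psmb8 and Ifih1) and in 4 with lower ones (Isg20, Gbp2, Mx2 and Ifi47), beside 6.28% and 9.03% of all tested genes. Single arrays carried much of these counts: without heterozygous replicate 2 they were 2 higher (Oas3 and Oasl1) and 4 lower, and without heterozygous replicate 3 they were 6 higher and 1 lower (Isg20). With array weights they were 7 and 2. Here too the shares of all tested genes stand for the main setting only. The 6 MHC class I presentation genes all had differences above 0 (5 of them without heterozygous replicate 1 or 2 or null replicate 2), B2m by only 0.01. The 5 interferon-induced GTPases among the members all had differences below 0 (4 of them without heterozygous replicate 3). Related GTPases outside the members went both ways, with Gbp7 (0.29) and Irgm2 (0.28) above 0 and Gbp6 (-1.02) and Iigp1 (-0.77) below.

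**Figure D1:**
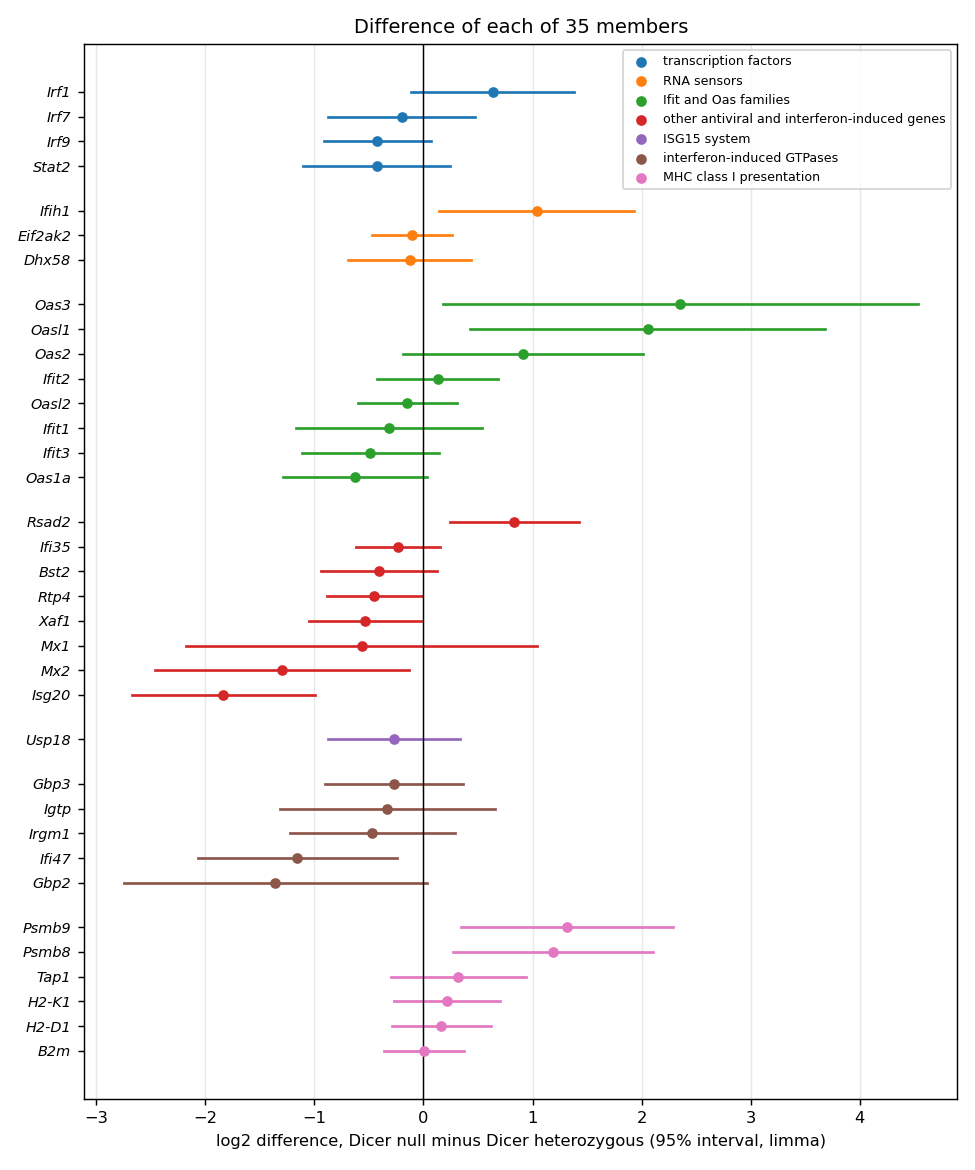
Log2 difference between Dicer null and Dicer heterozygous arrays (x axis) for each of 35 members, grouped by role (colour), with the 95% interval from limma as a line. The points run from -1.83 (Isg20) to 2.35 (Oas3), the 6 MHC class I genes lie at or above 0, and the 5 GTPases lie below it; no member passed after adjustment.

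Among the transcription factors, which carry the signal to the DNA, the differences ran from -0.43 to 0.63, with a median size of 0.43 beside 0.34 over all tested genes. Irf1, induced by interferon gamma and an activator of MHC class I genes, stood at log2 values of 9.06, 9.25 and 9.89 in heterozygous replicates 1, 2 and 3, while null replicates 1, 2 and 3 gave 9.56, 10.23 and 10.31. The ranges overlapped, since the lowest null value was below the highest heterozygous one, and the difference was 0.63 (95% interval -0.12 to 1.38, limma adjusted p = 0.279). Irf9, the DNA-binding subunit of the complex with Stat2, gave 10.45, 10.52 and 10.91 in the heterozygous and 10.05, 10.42 and 10.14 in the null arrays. Here every null value was the lower one, by -0.42 in the mean (SE 0.20, limma adjusted p = 0.269). Stat2 (-0.43) and Irf7, the factor that amplifies the type I response (-0.20), had overlapping groups. Irf7 changed sign to 0.17 when arrays were weighted.

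The 3 sensors of double-stranded RNA had differences of 1.04, -0.10 and -0.13. Ifih1, the sensor MDA5 for long double-stranded RNA, stood at 9.87, 8.82 and 10.12 in heterozygous replicates 1 to 3 and at 10.36, 10.70 and 10.86 in the null ones. All null values were above all heterozygous values, 2.05-fold in the mean (log2 difference 1.04, SE 0.37, limma adjusted p = 0.166). Without heterozygous replicate 2, which held its lowest value, the log2 difference was 0.65. Eif2ak2, the kinase PKR that stops translation on binding such RNA, was nearly level over the arrays, at 10.61, 10.77 and 10.60 against 10.62, 10.58 and 10.47. Its difference was -0.10 with a 95% interval of -0.47 to 0.26. Dhx58, the sensor LGP2, differed by -0.13 (95% interval -0.69 to 0.44), and its second probe set gave 0.42.

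The Ifit and Oas families spanned the range of differences. Ifit proteins bind foreign RNA at its 5′ end, and Oas enzymes make short chains of adenosine on sensing double-stranded RNA, which activate the nuclease RNase L. Oas3 gave 10.19, 7.70 and 6.41 in heterozygous replicates 1, 2 and 3 and 10.52, 10.51 and 10.33 in null replicates 1, 2 and 3. The null arrays were close together, heterozygous replicate 1 lay just under them, and heterozygous replicates 2 and 3 lay far below. In the mean the null value was 5.11-fold higher (log2 difference 2.35, SE 0.90, limma adjusted p = 0.188), with an SD of 1.92 in the heterozygous group against 0.11 in the null group (n = 3 each). Without heterozygous replicate 1 the log2 difference was 3.40 and Oas3 passed (limma adjusted p = 0.0308), and without heterozygous replicate 3 it was 1.51.

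Oasl1, a relative of the Oas enzymes that restrains Irf7 translation, gave 8.64, 6.21 and 8.33 against 9.40, 9.57 and 10.38. Each null value exceeded each heterozygous one, by 4.16-fold in the mean (log2 difference 2.06, SE 0.67, limma adjusted p = 0.142), and heterozygous replicate 2 was the lowest array. The log2 difference was 1.30 without that array. Oas2 had a difference of 0.91 with overlapping groups, its heterozygous replicate 1 lying within the null range of 7.25 to 7.67. For Oas1a the order was the reverse: the null arrays (10.40, 10.64 and 9.99) all lay below the heterozygous ones (10.67, 10.83 and 11.41), by -0.63 in the mean (SE 0.27, limma adjusted p = 0.237). Oas1a was given array by array after its values were seen, because it shares the ISRE letters with Oas3.

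Some members lie side by side on a chromosome. Oas2 and Oas3 are neighbours on chromosome 5 and had differences of 0.91 and 2.35, and Oasl2 and Oasl1, also neighbours there, had -0.15 (95% interval -0.60 to 0.31) and 2.06. On chromosome 19 Ifit2 and its neighbour Ifit3 had differences of 0.13 and -0.49, and Ifit1 had -0.31. The order of the groups in Ifit3 was complete, with null values of 11.68 to 11.91 and heterozygous values of 11.97 to 12.79, and the highest of these was in heterozygous replicate 3, without which the difference was -0.23. Ifit1 turned to 0.05 without heterozygous replicate 3, and Ifit2 to -0.02 without null replicate 2. The differences between neighbours were not tested.

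**Figure D2:**
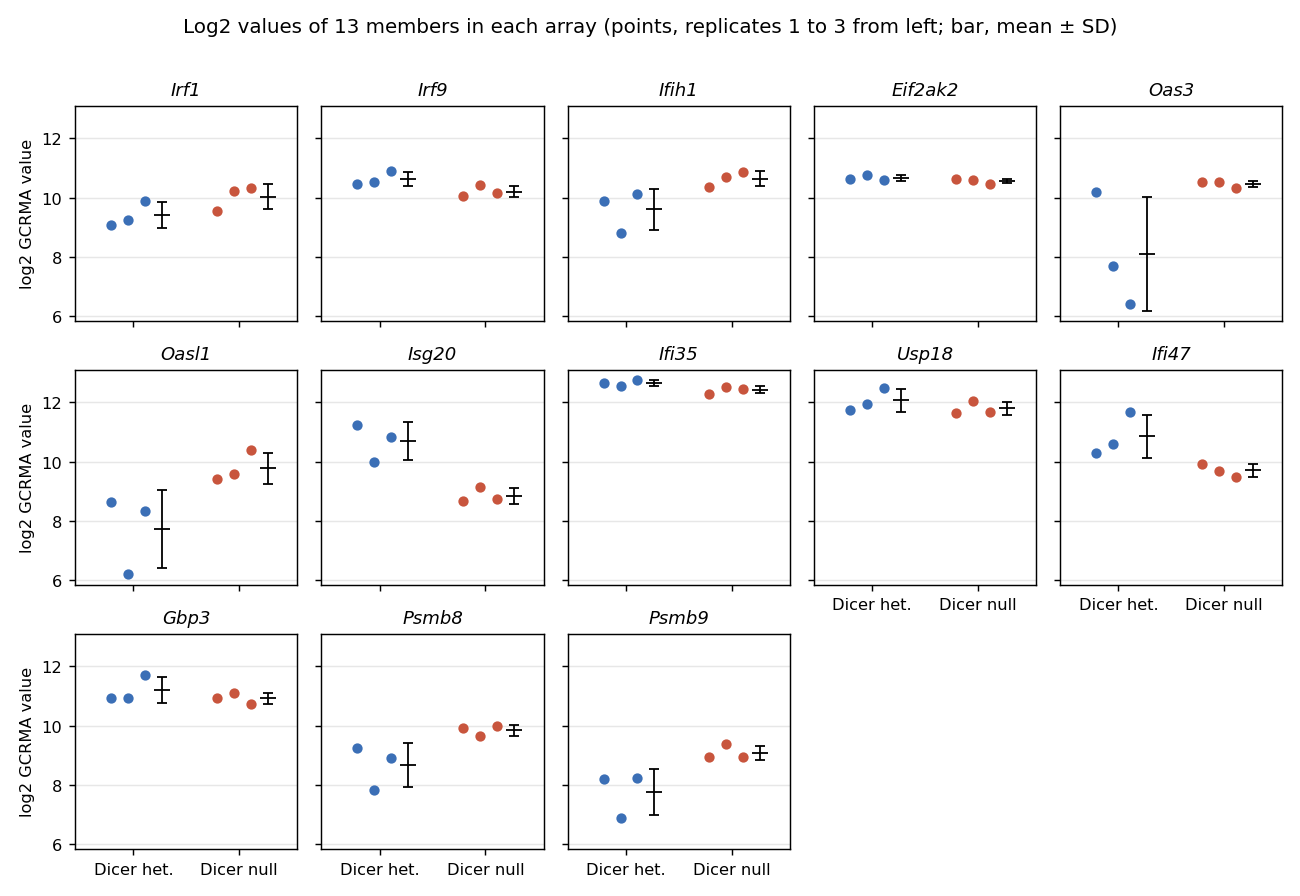
Log2 GCRMA values (y axis) of 13 members in the 3 Dicer heterozygous (blue) and 3 Dicer null (red) arrays, with the mean ± SD (n = 3) beside each group. In Oas3 the heterozygous points spread from 6.41 to 10.19 while the null points lie between 10.33 and 10.52; in Isg20 all null points lie below all heterozygous points.

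Isg20 came nearest to the threshold of all members. It is an exonuclease that degrades single-stranded viral RNA, and its probe set read 11.25, 10.00 and 10.82 with 1 copy of Dicer1 but 8.66, 9.16 and 8.75 with none. Every null value was lower, 3.56-fold in the mean (log2 difference -1.83, SE 0.35, 95% interval -2.68 to -0.99, limma adjusted p = 0.0512). It passed in 5 of the 20 alternatives that gave it a value: with a minimum mean of 4 or 5, with at least 3 arrays at 3 or more, with a trend in limma's moderation and with array weights (adjusted p of 0.0336 to 0.0492). Over all 20 its adjusted p lay between 0.0336 and 0.169. Without any 1 array the log2 difference lay between -2.18 and -1.55.

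Of the other antiviral genes, Rsad2 was the exception in sign. It encodes viperin, which makes a chain-terminating nucleotide, and gave 11.80, 11.26 and 12.11 in heterozygous and 12.50, 12.54 and 12.63 in null arrays (difference 0.83, SE 0.25, limma adjusted p = 0.117). Its other probe sets gave larger differences, 1.44 with no overlap of the groups and 1.76 with an overlap. Rsad2 was singled out after its values were seen. The remaining members of this group had differences below 0. Bst2 is the tether that holds budding virus at the cell surface, Xaf1 a promoter of cell death and Rtp4 a chaperone of receptors. In the chosen probe sets of Bst2, Xaf1, Rtp4 and Ifi35 all null values lay below all heterozygous ones. The differences were -0.41, -0.54, -0.45 and -0.23, in that order. The second probe sets of Xaf1 (-0.48) and Rtp4 (-0.26) had overlapping groups. Ifi35, for which every array is given by the naming rule, stood at 12.64, 12.55 and 12.77 against 12.29, 12.51 and 12.46 (SE 0.16, limma adjusted p = 0.426). That probe set carries the s suffix, which marks probes shared by several transcripts, and the one without a suffix gave -0.60 with no overlap (limma adjusted p = 0.196). The remaining Ifi35 probe set gave -0.19 with overlapping groups.

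The Mx genes, dynamin-like GTPases that trap viral particles and of which C57BL/6 mice carry defective forms, varied widely among the heterozygous arrays. Mx1 stood at 7.63, 9.39 and 10.19 there and at 8.54, 8.99 and 7.98 in the null arrays, which lie inside that range (difference -0.57, SE 0.66). Mx2 gave 6.07, 6.93 and 7.82 against 5.61, 6.13 and 5.18, with an overlap through heterozygous replicate 1 (difference -1.30, SE 0.48, limma adjusted p = 0.178). In both genes heterozygous replicate 3 was the highest array, and without it the differences were -0.01 and -0.86.

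Usp18, the protease that removes Isg15 from proteins and damps the type I receptor, gave 11.75, 11.96 and 12.50 in heterozygous and 11.65, 12.06 and 11.69 in null arrays. The groups overlapped, and the difference was -0.27 (95% interval -0.88 to 0.34, limma adjusted p = 0.561). Without heterozygous replicate 3 it was -0.06.

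The interferon-induced GTPases, which gather on vacuoles that hold microbes, were all highest in heterozygous replicate 3, the highest array for 21.6% of all tested genes. Ifi47 gave 10.30, 10.60 and 11.68 in heterozygous and 9.93, 9.69 and 9.49 in null arrays, with no overlap (difference -1.16, SE 0.38, limma adjusted p = 0.142). Gbp3 was at 10.94, 10.94 and 11.70 against 10.93, 11.11 and 10.73, and its groups overlapped (difference -0.27, SE 0.26). Gbp2 had 9.13, 8.46 and 10.68 against 8.52, 7.91 and 7.77 (difference -1.36, SE 0.57, limma adjusted p = 0.225), and its second probe set gave -1.34. Without heterozygous replicate 3 the difference was -0.73 in Gbp2, -0.75 in Ifi47 and -0.02 in Gbp3, and array weights gave -0.65 in Gbp2. Irgm1 and Igtp, both of the immunity-related family, differed by -0.47 and -0.33 with overlapping groups. Without heterozygous replicate 3 the median of these 5 genes moved from -0.47 to -0.23, and Igtp turned to 0.12.

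Within MHC class I presentation the chosen probe sets gave larger differences for the subunits of the immunoproteasome and smaller ones for the class I chains. This contrast was not tested, and its size depends on the probe sets of the chains. Psmb8 and Psmb9 are catalytic subunits that replace the standard ones after interferon and change which peptides are cut. Psmb8 gave 9.25, 7.83 and 8.91 in heterozygous replicates 1 to 3 and 9.93, 9.64 and 9.98 in null replicates 1 to 3. Psmb9 gave 8.19, 6.88 and 8.25 against 8.95, 9.37 and 8.94. In both genes all null values lay above all heterozygous ones, and heterozygous replicate 2 was the lowest array. The differences were 1.19 (SE 0.38, limma adjusted p = 0.137) and 1.31 (SE 0.40, limma adjusted p = 0.125), or 2.28-fold and 2.49-fold, and 0.77 and 0.87 without heterozygous replicate 2.

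Tap1, a subunit of the transporter that carries peptides into the endoplasmic reticulum, lies between Psmb9 and Psmb8 on chromosome 17. Its promoter window shares 275 bases with that of Psmb9, on the opposite strand. Its values were 9.13, 8.42 and 8.90 against 9.28, 9.32 and 8.81, with an overlap and a difference of 0.32 (95% interval -0.30 to 0.94). The class I heavy chains H2-K1 and H2-D1 gave 0.21 (95% interval -0.27 to 0.70) and 0.16 (-0.29 to 0.62). Their light chain B2m gave 13.21, 13.20 and 13.40 against 13.24, 13.30 and 13.29, a difference of 0.01 with an interval of -0.36 to 0.37, and a sign that 5 alternatives turned. The 6 genes of this group all had their lowest value in heterozygous replicate 2, the lowest array for 8.68% of all tested genes. H2-K1 and H2-D1 are closely related, and the chosen probe sets of both carry the x suffix, which marks probes that can match other genes, so their signals may be mixed. All 6 tested probe sets of H2-D1 and all 4 of H2-K1 had positive differences, from 0.05 to 0.59 and from 0.07 to 0.65. The 0.59 came from the tested H2-D1 probe set without a suffix, at means of 9.13 (heterozygous) and 9.72 (null) with overlapping groups. The second probe set of B2m gave -0.08. For 12 members with a further tested probe set, 19 of 21 such probe sets had the sign of the chosen one, and 0 passed. The 21 include the further probe sets of H2-K1 and H2-D1 and so are not separate readings.

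The array that stood apart was heterozygous replicate 3. It held the highest value for 21 of the 35 members (60%), beside 21.6% of all tested genes with a single highest array. The members' median deviation from their own means was 0.36 there, and -0.01 and -0.06 in heterozygous replicates 1 and 2, and -0.11, 0.01 and -0.17 in null replicates 1, 2 and 3. Without that array the members' median difference was -0.01 in place of -0.23 (median of all genes -0.05), with 16 members above 0 and 19 below, and 6 higher and 2 lower at an unadjusted p under 0.05. A list of proliferation genes, added after the data were seen (13 tested), had a median deviation of -0.81 in the same array. The list's median was 0.05 and -0.02 in heterozygous replicates 1 and 2, and 0.22, 0.48 and 0.32 in null replicates 1, 2 and 3. All null medians thus lay above all heterozygous ones, so the list also differed between the genotypes. The lowest median was that of heterozygous replicate 3. Heterozygous replicate 3 was the lowest array for 12 of the 13 genes, beside 30.3% of all tested genes. The list's part in the members' differences was not tested. The members' lowest values were most frequent in heterozygous replicate 2 (12 of 35, 34.3%) and null replicate 3 (11 of 35, 31.4%). These arrays were the lowest for 8.68% and 16.4% of all tested genes. Over the 6 arrays, pairs of members correlated with a median Pearson r of 0.33 (595 pairs, 366 above 0), a description of points that share arrays.

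**Figure D3:**
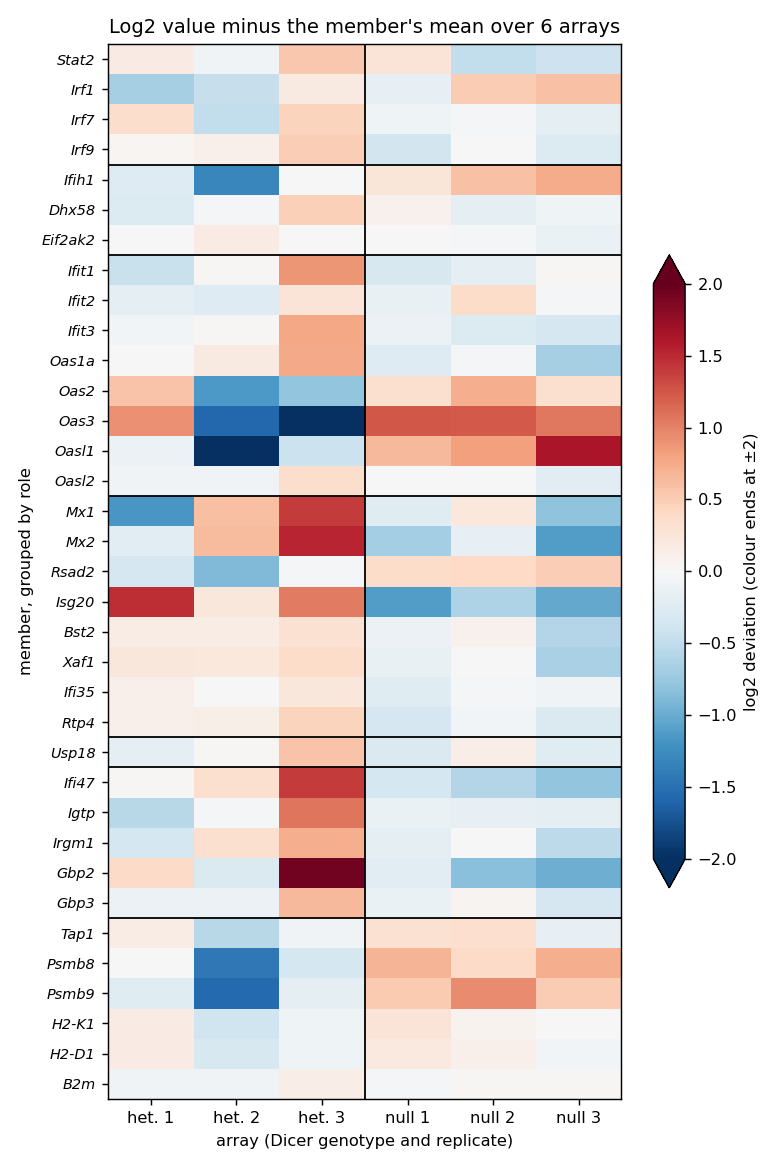
Log2 value of each of 35 members minus its mean over the 6 arrays (colour, ending at ±2), with members in rows grouped by role and the arrays in columns. Heterozygous replicate 3 is the highest array for 21 members, among them all 5 GTPases, and heterozygous replicate 2 is the lowest for all 6 MHC class I genes. The first is the highest for 21.6% of all tested genes and the second the lowest for 8.68%.

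The 14 tested members with the ISRE letters had differences of -1.36 (Gbp2) to 2.35 (Oas3), 4 above 0 and 10 below, and the 15 tested members whose window lacks them had differences of -1.83 to 2.06, 8 above 0 and 7 below. The medians were -0.32 with the letters and 0.13 without. The 9 tested members with GAS letters lay between -1.83 (Isg20) and 1.19 (Psmb8), 3 above 0 and 6 below, and of the 20 without them 9 lay above 0 and 11 below. A window without these exact letters does not show that a gene lacks the element. No comparison of these groups was tested.

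Other genes of the pathway were read from lists of ligands, receptors, sensors, further targets, regulators and presentation genes. Of 101 listed, 81 were tested, and 0 were higher and 0 lower in limma after adjustment, with 7 higher and 4 lower at an unadjusted p under 0.05. That is 8.64% and 4.94% of the 81, below the 10.5% and 13.5% of all tested genes. Their median difference was 0.08, beside -0.01 over all tested genes. The gene with the smallest p of each list is named. Among interferons, receptors and JAK-STAT genes (12 tested) this was Irf2, a repressor of interferon genes, at 10.78, 11.01 and 10.43 against 11.58, 11.55 and 11.36 (difference 0.76, SE 0.20, limma adjusted p = 0.0968). Among nucleic acid sensors (14 tested) it was Cgas, the sensor of cytosolic DNA, at 6.62, 6.88 and 7.35 against 7.91, 8.45 and 9.24 (difference 1.58, SE 0.38, limma adjusted p = 0.0796). In both genes the groups did not overlap.

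Ifi30, a thiol reductase of antigen processing in lysosomes, led the 29 tested further interferon-induced genes, at 11.43, 10.87 and 10.15 against 12.22, 12.55 and 12.29 (difference 1.54, SE 0.34, limma adjusted p = 0.0661). Tnfaip3, an inhibitor of NF-kB, led the 9 negative regulators with a difference of -0.90 (SE 0.31, limma adjusted p = 0.158). Psmb10, the remaining catalytic subunit of the immunoproteasome, led the 17 other presentation genes with 0.60 (SE 0.26, limma adjusted p = 0.231). As for the ligands themselves, named outside the rule, Ifnb1 lay near background in both groups (2.86, 3.64 and 4.01 against 2.85, 3.61 and 2.70). Ifna4, with a mean under 3 and so not tested, was at 1.59, 1.93 and 1.09 against 3.01, 4.16 and 2.28, with no overlap. The other listed ligands were not tested either and had overlapping groups. Their heterozygous and null means were 2.32 and 2.53 (Ifna1), 1.32 and 1.70 (Ifna2) and 1.54 and 1.61 (Ifng). Of the type I receptor subunits, Ifnar1 differed by -0.17 (95% interval -0.64 to 0.30) and Ifnar2 by 0.29 (-0.22 to 0.80). These pathway counts also moved with the setting: 2 genes passed without heterozygous replicate 1 (Ifi30 and Ptpn6) and 7 with array weights. In these settings 501 and 2949 probe sets passed in all, against 756 in the main one.

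**Figure D4:**
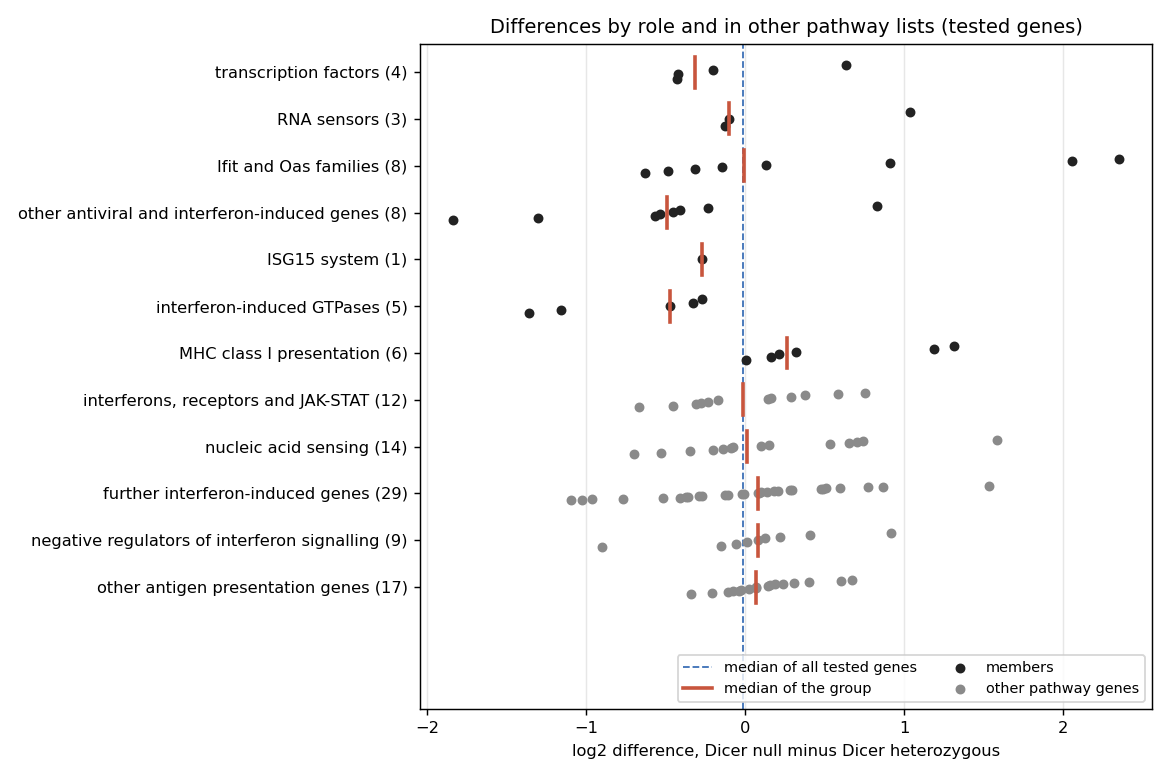
Log2 difference between Dicer null and Dicer heterozygous arrays (x axis) for tested members by role (black) and for the other pathway lists (grey), with the number of genes in brackets, the median of each group in red and that of all tested genes as a dashed line. The member MHC class I genes have a median of 0.27 and the member GTPases one of -0.47. The other pathway lists, which hold further GTPases, have medians between -0.01 and 0.08.

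The remaining checks concern the series as a whole. Dicer1 itself had 2 tested probe sets with differences of 0.14 and 0.27 (limma adjusted p = 0.693 and 0.573), and a probe set outside the deleted part checks nothing. Of the mesenchymal markers 9 of 10 were tested, with Vim, the brightest, at 13.71 to 13.84 in all arrays. Of these 9, 4 had differences above 0 and 5 below, with a median of -0.07. At least 2-fold lower in null cells were 2 (22.2%, beside 9.03% of all tested genes) and 2-fold higher 0 (beside 6.28%). The 2 were S100a4 (-1.37, no overlap, limma adjusted p = 0.057) and Pdgfrb (-1.03, overlapping groups, limma adjusted p = 0.186), both named after their values were seen. Their part in the members' differences was not tested. Of the leukocyte markers 1 of 9 was tested, Cd68 at 4.43 to 7.13, and Ptprc, the pan-leukocyte marker, lay between 1.55 and 1.62. Markers of professional antigen-presenting cells had 1 of 5 tested, Cd74 at 2.47 to 3.93, and endothelial markers 0 of 5, Kdr reaching at most 3.31. Epithelial markers had 3 of 5 tested, with Krt19 at 4.75 to 8.92 and Krt18 at 9.02 in heterozygous replicate 1 against at most 2.68 elsewhere. In such bulk samples fewer cells of a type and less RNA per cell cannot be told apart.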

How the data were processed

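Messenger RNA of 6 samples (3 Dicer heterozygous, 3 Dicer null) was measured on Affymetrix 3′ arrays. The authors deposited log2 values for 45037 probe sets, made with R 2.11.1 and GCRMA 2.20.0 per the submitters' processing notes. The scale is read from the range of 0.40 to 14.18. By default GCRMA normalizes quantiles between arrays, which removes any overall shift in RNA amount. Its settings are not stated in any source used here.

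The platform annotation gave the names of probe sets (34945 with 1 symbol, 932 with several, 9160 with none), and all 35 members with a probe set matched RefSeq by Entrez ID. Tests used limma 3.58.1 in R 4.3.3 (lmFit and eBayes, two-sided, no block) on 24385 probe sets with a mean of at least 3, with Benjamini-Hochberg adjustment at 0.05, and the code was tested on simulated data. The members and lists were chosen with earlier results of these data known. Values in all arrays are given for members that passed, for those with separate groups and at least a 2-fold difference, and for the highest probe sets of a role until 2 were reached, and others named so were chosen after their values were seen. Of each other list the gene with the smallest p, or for markers the brightest, is named. Alternatives changed the filter, the probe set per gene, the centring, limma's moderation, the array weights, the replicate block and the arrays included. The number of arrays limits the precision. Figures were drawn with matplotlib 3.10.9.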

Additional observations from a re-analysis of the deposited data

How the results depend on the processing

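The limits are those of 3 arrays per group, of 1 probe set per gene and of an array, heterozygous replicate 3, in which most members were highest. The cause of each change below was not tested unless named. Of 24385 probe sets 756 passed in limma, 0 with ordinary t statistics, 2949 with array weights, 116 with the replicate number as a block, and 44 to 857 without 1 array. The count of called members was 0, and 1 (Isg20) with a minimum mean of 4 or 5, with at least 3 arrays at 3 or more and with trend, 7 with array weights (Ifih1, Oas3, Oasl1, Rsad2, Isg20, Psmb8 and Psmb9) and 0 to 1 without 1 array (Oas3). The first 3 of these settings change which probe sets limma's moderation and the adjustment cover, not the member's values or its difference. Called pathway genes numbered 0, and 2 with trend (Ifi27l2a and Ifi30), 7 with array weights, 1 with the second probe set (Cgas) and 0 to 2 without 1 array. The members' median of -0.23 lay between -0.33 and -0.01 without 1 array, the latter without heterozygous replicate 3.

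Signs turned for 6 of the 35 members and for none of the other 29, in the alternatives run. Irf7 turned to 0.17 with array weights. Dhx58 turned to 0.15 as a median of its probe sets and 0.42 with its second, and ranged from -0.29 to 0.078 without 1 array, turning without heterozygous replicate 3. Leaving out that array also turned Ifit1 (range -0.61 to 0.052) and Igtp (-0.69 to 0.12). Ifit2 (-0.018 to 0.29) turned without null replicate 2. B2m turned to -0.038 as a median of its probe sets and -0.083 with its second, and ranged from -0.028 to 0.072 without 1 array, with values below 0 without heterozygous replicates 1 or 2 or null replicate 2.

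Arrays with the same replicate number had deviations with r of -0.06, 0.11 and 0.24, and for 3 of the 6 the closest array was the one of its number, so the numbers are not taken as pairs. With the replicate block 0 members and 0 pathway genes passed. The second probe set exists for 12 members only, 34 have a probe set without the s or x suffix, and a median of several probe sets gives no test.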
